A study of Mus musculus with 24 samples.

Results

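The transcriptome of cGAS knockout (KO) fibroblasts on day 42 of culture was compared with that of cGAS KO fibroblasts on day 36. The genes compared were all those that reached 5 CPM (the gene's count per 1000000 counts of the library total, corrected by its TMM factor) in either of these KO libraries, which gave 11601 of the 45706 genes in the deposited table. The cells were mouse embryonic fibroblasts in primary culture, labelled as strain C57B1/6 and kept in serial culture under 20% oxygen. In all 4 groups enter the comparisons: cGAS KO on day 42 (passage 14), cGAS KO on day 36 (passage 12), and wild-type (WT) cells at the same days and passages. The KO and WT libraries of day 33 (passage 11) are given for context, and they also enter the fit over both genotypes described near the end. The labels name 4 numbered samples per group, but the 4 columns of each group differed by less than the sampling noise (mean chi-square per degree of freedom 0.832 to 0.843) and were counted as 1 library. The same statistic between a column of KO day 42 and a column of KO day 36 was 9.36.

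Each genotype and day is therefore a single library, and no p-value can be given for the difference between the days in KO. A gene is called higher or lower where its log2 CPM values differed by 1 or more, that is 2-fold. The interval beside a fold is the exact 95% interval of the count ratio. It covers counting error only, and nothing in it measures the spread between cultures. The KO libraries held 36447639 counts on day 42 and 25651250 counts on day 36, and the WT libraries held 35025184 counts on day 42 and 47092611 counts on day 36. Because these are bulk samples, fewer cells of a type and less RNA per cell cannot be told apart.

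cGAS is an enzyme that binds DNA in the cytosol and makes a cyclic dinucleotide, which activates the adaptor STING and the interferon and inflammatory genes downstream of it. Fibroblasts passaged under atmospheric oxygen accumulate damage and tend to enter senescence, a lasting growth arrest with a secretory programme. The series title concerns the part of cGAS in that process. Immediate early genes are transcribed within minutes of a growth factor or stress signal, without new protein synthesis, and their transcripts are short-lived. Genes of cholesterol synthesis are switched on together by the transcription factor SREBP2 when sterols in the endoplasmic reticulum run low.

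Of the gene lists examined, the immediate early genes and the cholesterol synthesis genes held the most genes called lower on day 42. The promoters below belong to called members of these groups and show motifs that recur within each group. Each is the stretch of 250 bases before the RefSeq start site (GRCm38.p6), written 5′ to 3′ on the strand of the gene. In the immediate early promoters the capitals mark the core of the cyclic AMP response element, TGACG or its reverse complement, bound by factors of the CREB family. This core was found on either strand in 12 of the 18 immediate early genes with a window (66.67%), against 32.31% of 7911 windows of genes at 5 CPM or more and 19.79% of all 27025 windows. The full element, TGACGTCA, was in 3 of the 18 (16.67%), against 3.173% of the 7911. Another motif searched, the CArG box of the serum response element, was in 2 of the 18 (11.11%), against 1.567% of the 7911. The windows are those of Fos at chr12:85473640-85473889, Fosb at chr7:19310046-19310295, Nr4a1 at chr15:101266596-101266845 and Dusp1 at chr17:26508473-26508722.
Fos: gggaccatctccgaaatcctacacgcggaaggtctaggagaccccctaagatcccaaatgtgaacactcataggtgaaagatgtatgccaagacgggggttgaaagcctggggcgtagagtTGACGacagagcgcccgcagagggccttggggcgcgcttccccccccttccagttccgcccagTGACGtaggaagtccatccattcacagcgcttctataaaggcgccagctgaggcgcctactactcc
Fosb: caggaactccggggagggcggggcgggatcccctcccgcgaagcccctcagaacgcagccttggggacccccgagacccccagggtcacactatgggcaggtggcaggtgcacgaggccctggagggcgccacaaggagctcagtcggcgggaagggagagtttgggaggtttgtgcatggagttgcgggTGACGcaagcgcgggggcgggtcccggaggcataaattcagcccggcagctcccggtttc
Nr4a1: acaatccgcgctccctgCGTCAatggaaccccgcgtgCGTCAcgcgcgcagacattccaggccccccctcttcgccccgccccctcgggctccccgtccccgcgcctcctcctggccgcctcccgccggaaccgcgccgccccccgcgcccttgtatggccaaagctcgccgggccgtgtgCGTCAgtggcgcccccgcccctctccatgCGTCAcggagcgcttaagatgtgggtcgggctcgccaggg
Dusp1: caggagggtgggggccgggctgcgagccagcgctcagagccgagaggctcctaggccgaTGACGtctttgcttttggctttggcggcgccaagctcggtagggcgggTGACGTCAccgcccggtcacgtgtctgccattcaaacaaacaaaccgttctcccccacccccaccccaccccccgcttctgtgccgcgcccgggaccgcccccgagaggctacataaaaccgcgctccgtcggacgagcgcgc

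In the cholesterol synthesis promoters the capitals mark the CCAAT box, CCAAT or its reverse complement ATTGG, the binding sequence of NF-Y. It was found on either strand in 16 of the 17 cholesterol synthesis genes with a window (94.12%), against 40.72% of the windows of genes at 5 CPM or more and 37.49% of all windows. The sterol response element itself, searched as TCACNCCAC on both strands, was found in 1 of the 17 (5.88%). It is rare in general, in 1.251% of the windows of genes at 5 CPM or more and 1.225% of all windows. These counts describe letters in a fixed window and say nothing of binding. The windows are those of Idi1 at chr13:8885356-8885605, Msmo1 at chr8:64733579-64733828, Nsdhl at chrX:72918271-72918520, Hsd17b7 at chr1:169969206-169969455 and Insig1 at chr5:28071162-28071411.
Idi1: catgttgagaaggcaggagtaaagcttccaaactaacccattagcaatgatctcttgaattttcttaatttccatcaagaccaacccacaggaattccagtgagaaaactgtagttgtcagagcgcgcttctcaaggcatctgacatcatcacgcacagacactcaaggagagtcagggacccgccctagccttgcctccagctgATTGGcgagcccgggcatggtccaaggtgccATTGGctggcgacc
Msmo1: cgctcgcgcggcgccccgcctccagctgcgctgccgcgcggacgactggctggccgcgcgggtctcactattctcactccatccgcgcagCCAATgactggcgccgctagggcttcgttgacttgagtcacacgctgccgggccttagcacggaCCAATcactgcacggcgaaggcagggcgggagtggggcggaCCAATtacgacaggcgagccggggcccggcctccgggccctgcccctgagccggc
Nsdhl: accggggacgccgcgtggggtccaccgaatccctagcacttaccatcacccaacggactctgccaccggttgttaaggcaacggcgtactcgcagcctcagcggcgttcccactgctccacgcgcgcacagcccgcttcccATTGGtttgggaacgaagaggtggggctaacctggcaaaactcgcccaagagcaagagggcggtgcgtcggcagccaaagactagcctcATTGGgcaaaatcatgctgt
Hsd17b7: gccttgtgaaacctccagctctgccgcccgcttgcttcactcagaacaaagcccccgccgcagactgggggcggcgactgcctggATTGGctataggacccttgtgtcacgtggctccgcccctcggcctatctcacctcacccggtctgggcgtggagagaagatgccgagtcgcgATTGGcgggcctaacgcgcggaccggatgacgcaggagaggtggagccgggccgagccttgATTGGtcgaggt
Insig1: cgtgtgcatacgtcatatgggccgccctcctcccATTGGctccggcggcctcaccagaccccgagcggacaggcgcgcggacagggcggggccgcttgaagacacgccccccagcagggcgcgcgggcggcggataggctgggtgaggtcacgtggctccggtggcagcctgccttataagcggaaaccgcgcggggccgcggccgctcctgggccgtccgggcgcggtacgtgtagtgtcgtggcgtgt

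Few genes differed between the days in KO cells. Of the 11601 genes, 48 (0.414%) were called higher and 56 (0.483%) were called lower on day 42, together 0.896%. The median log2 difference over all of them was -0.01, their SD was 0.284, and 83.0% lay within 1.25-fold of equality. For the same genes in WT cells the SD was 0.518 and 59.9% lay within 1.25-fold, with 369 called higher (3.18%) and 246 called lower (2.12%), together 5.3%. Whether the step was smaller in KO than in WT cells was not tested, since each rests on 1 library per day. The interval of the count ratio lay wholly beyond 2-fold for 20 of the 48 higher genes and 34 of the 56 lower ones. A single gene, Lrrtm1, was more than 4-fold higher and 6 were more than 4-fold lower. Just inside the 5 CPM limit were Fam58b at 5.02 CPM and Rpl38 at 5.04 CPM, and just outside it Jph1 and Glipr1, both at 4.998 CPM in the higher library.

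**Figure D1:**
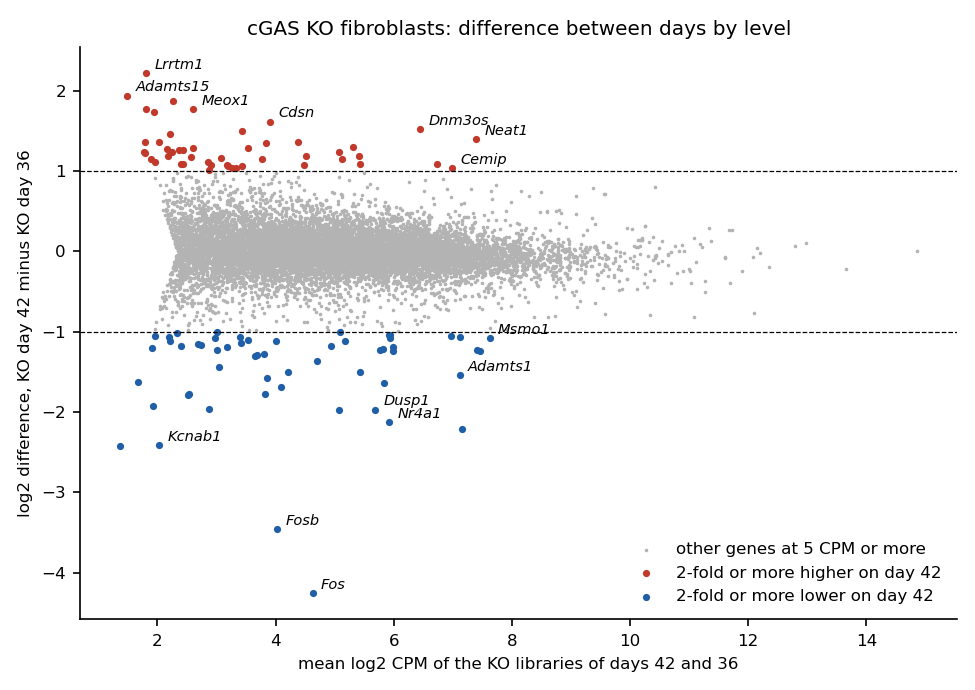
Log2 difference of KO day 42 minus KO day 36 (vertical axis) against the mean log2 CPM of both libraries (horizontal axis) for 11601 genes, 1 library per day, with dashed lines at 2-fold. The 48 red genes are higher and the 56 blue genes lower on day 42, and Fos and Fosb stand farthest from 0.

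The targeted gene was low in every KO library. Mb21d1, which encodes cGAS, was at 0.239, 0 and 0.127 CPM in KO cells on days 33, 36 and 42, against 4.74, 4.08 and 4.81 CPM in WT cells on the same days. The count of 0 on day 36 allows a level of up to 0.112 CPM (3 counts). Fibroblast genes were abundant in both KO libraries. Fn1, the matrix protein fibronectin, was at 29793 CPM on day 42 and 29733 CPM on day 36, and Vim, the intermediate filament vimentin, at 4245 CPM on day 42 and 4465 CPM on day 36. Of 15 fibroblast markers 13 reached 5 CPM, and the list summed to 52609 CPM on day 42 and 51165 CPM on day 36. The other two were nearly absent, with Lum at 0.912 CPM on day 42 and 0.224 CPM on day 36, and Fap at 0.431 CPM on day 42 and 0.037 CPM on day 36. The 20 macrophage markers summed to 7.93 CPM on day 42 and 10.3 CPM on day 36, and none of the 10 endothelial markers reached 5 CPM. Xist, the RNA that coats an inactive X chromosome, was at 640 CPM on day 42 and 465 CPM on day 36, and the Y-linked Ddx3y at 38.3 CPM on day 42 and 45.0 CPM on day 36. The KO libraries thus held transcripts of both sexes on both days, while WT cells had at most 0.363 CPM of Xist.

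The largest single folds were in immediate early genes. Of 25 members at 5 CPM or more, 9 were called lower, beside 0.483% of all genes, 0 were called higher, and the median log2 difference was -0.58, beside -0.01 over all genes. Fos, a subunit of the AP-1 transcription factor, was at 5.60 CPM on day 42 (221 counts), against 108 CPM on day 36 (2889 counts). That is 19.2-fold lower, with a counting interval of 16.8 to 22.2. The KO library of day 33 held 191 CPM, and WT cells held 9.08 CPM on day 42 against 190 CPM on day 36. Fosb, its paralogue, was at 4.87 CPM on day 42, against 53.8 CPM on day 36 (11.1-fold lower, interval 9.51 to 12.9). Both day 42 libraries, KO and WT, therefore had the lowest Fos and Fosb of their genotype.

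Nr4a1, an orphan nuclear receptor induced by many stimuli, was at 29.1 CPM on day 42, against 127 CPM on day 36 (4.36-fold lower, interval 4.07 to 4.66). Dusp1, a phosphatase that switches off MAP kinases, was at 26.1 CPM on day 42, against 102 CPM on day 36 (3.92-fold lower, 3.65 to 4.22). Zfp36, which binds AU-rich messages and hastens their decay, was at 17.0 CPM on day 42, against 66.5 CPM on day 36 (3.92-fold lower, 3.59 to 4.296). Atf3, a stress-induced repressor, was at 3.09 CPM on day 42, against 10.7 CPM on day 36 (3.46-fold lower, 2.79 to 4.32). The other called members were Junb at 25.5 CPM on day 42 and 72.6 CPM on day 36, Klf2 at 7.09 and 15.7 CPM, and Klf4 at 42.9 and 87.9 CPM on the same days. All 9 were also below their day 36 level in WT cells, by log2 differences from -6.18 for Fosb to -1.21 for Klf2.

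The list did not move as a block. Egr1, a zinc finger factor of the same class, was at 130 CPM on day 42 and 170 CPM on day 36 in KO cells, a log2 difference of -0.39. In WT cells Egr1 was at 95.5 CPM on day 42 and 305 CPM on day 36, a log2 difference of -1.68. Jun, the partner of Fos in AP-1, was at 79.2 CPM on day 42 and 70.8 CPM on day 36, and Myc at 81.0 and 86.3 CPM. Egr2 and Arc were slightly above their day 36 level, with log2 differences of 0.41 and 0.33, so that 4 of the 25 lay above 0. In WT cells 23 of the 25 lay below 0 and the median was -1.40.

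Ppp1r15a, which encodes the phosphatase subunit GADD34 of the integrated stress response, was at 32.4 CPM on day 42, against 101 CPM on day 36 (3.13-fold lower, interval 2.93 to 3.34). It was the only called member among 30 genes of the unfolded protein and integrated stress responses, beside 0.896% of all genes called either way. The median of the 30 was 0.06. Sgk1, a kinase induced by serum and by glucocorticoids, was at 111 CPM on day 42, against 260 CPM on day 36 (2.35-fold lower, 2.26 to 2.44). Hes1, a repressor downstream of Notch, was at 35.5 CPM on day 42, against 83.0 CPM on day 36. F3, the coagulation starter tissue factor, was at 115 CPM on day 42, against 270 CPM on day 36, and at 214 CPM on day 42 against 844 CPM on day 36 in WT cells.

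**Figure D2:**
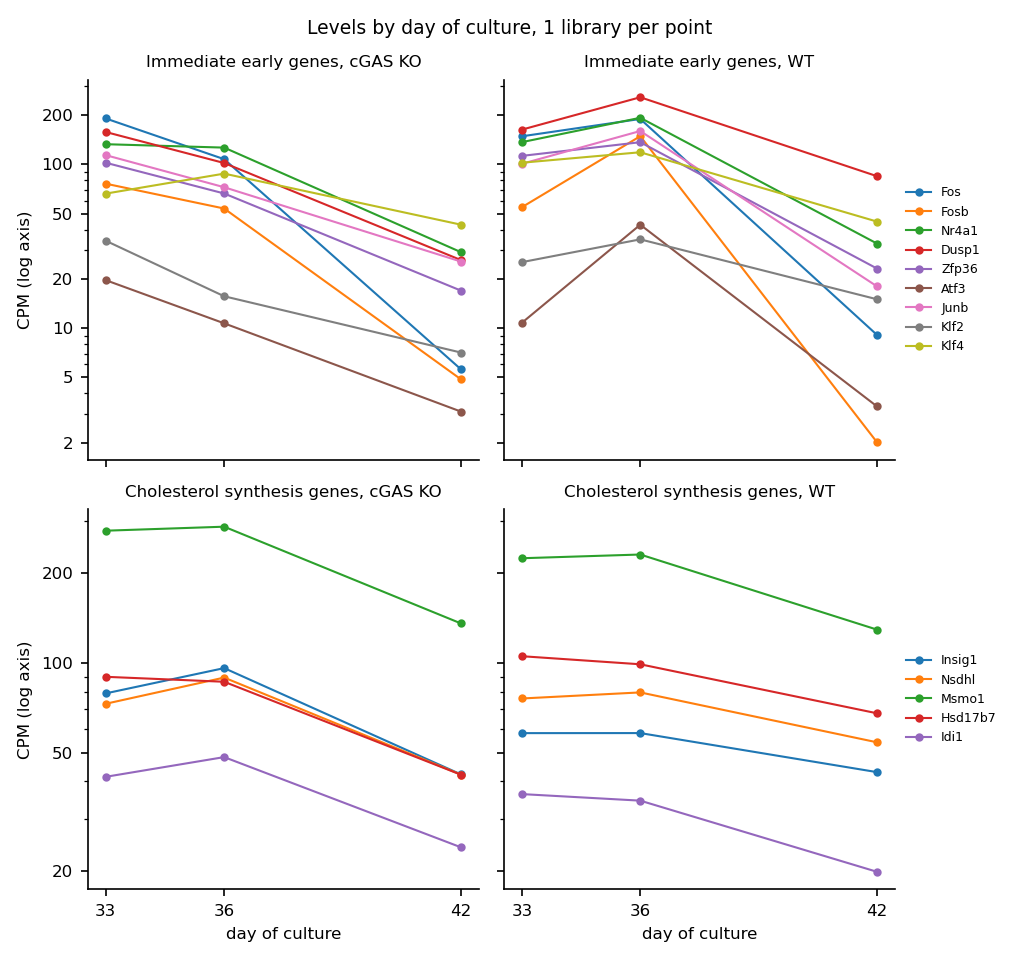
CPM (log axis) of the 9 called immediate early genes (top) and 5 of the called cholesterol synthesis genes (bottom) on days 33, 36 and 42 in cGAS KO (left) and WT cells (right), 1 library per point. All 14 genes shown had their lowest value on day 42 in both genotypes.

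Cholesterol synthesis genes were lower on day 42 without exception. All 25 members lay below 0, with log2 differences between -1.18 and -0.21 and a median of -0.84, and 6 were called lower, beside 0.483% of all genes. Insig1, which retains the SREBP precursors in the endoplasmic reticulum, was at 42.2 CPM on day 42, against 96.0 CPM on day 36 (2.28-fold lower, interval 2.14 to 2.42). Msmo1, a sterol demethylating oxidase, was at 136 CPM on day 42, against 287 CPM on day 36 (2.11-fold lower, 2.04 to 2.19). Nsdhl, which acts in the same demethylation, was at 42.14 CPM on day 42, against 89.3 CPM on day 36 (2.12-fold lower, 1.99 to 2.26). The called members Hsd17b7, a reductase of the same demethylation, and Idi1, which isomerises an early isoprenoid unit, were 2.05-fold and 2.01-fold lower.

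The other members stayed within 2-fold. Hmgcs1, which makes the substrate of the mevalonate pathway, was at 249 CPM on day 42 and 439 CPM on day 36. Srebf2, which encodes SREBP2 itself, was at 174 CPM on day 42 and 271 CPM on day 36, a log2 difference of -0.64. Over the list the summed level was 1835 CPM on day 42 and 3308 CPM on day 36 in KO cells, and 1748 CPM on day 42 and 2417 CPM on day 36 in WT cells. The KO library of day 33 stood at 2902 CPM. The median in WT cells was -0.31, with 22 of 25 members below 0.

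Fatty acid synthesis genes stood lower by less. Of 18 members 17 lay below 0 and 0 were called, with a median of -0.49 in KO cells and -0.14 in WT cells. Scd2, a desaturase that makes monounsaturated fatty acids, was at 986 CPM on day 42 and 1709 CPM on day 36, a log2 difference of -0.79. Fasn, the fatty acid synthase, was at 435 CPM on day 42 and 701 CPM on day 36. Acss2, which makes acetyl-CoA from acetate, had the largest difference of the list, -0.98, and stood at 0.74 in WT cells.

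Socs2, which dampens growth hormone signalling, was at 1.90 CPM on day 42, against 7.35 CPM on day 36 (3.87-fold lower, interval 2.95 to 5.12). Socs3, an inhibitor of receptors of the IL-6 family, was at 8.31 CPM on day 42, against 24.9 CPM on day 36, and Cish, of the same family, at 5.90 CPM on day 42, against 13.5 CPM on day 36. Socs3 and Cish were named because they were seen to be lower, so these genes give no count for their family. The related cytokine Lif was at 109 CPM on day 42 and 107 CPM on day 36. Il6, the founding cytokine of that group, lay below the limit, at 0.583 CPM on day 42 and 1.90 CPM on day 36.

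Metallothioneins, small proteins that bind zinc and copper, were lower in both genotypes. Mt2 was at 3.04 CPM on day 42, against 10.6 CPM on day 36 (3.48-fold lower, interval 2.81 to 4.35). Mt1 was at 16.1 CPM on day 42, against 41.7 CPM on day 36 (2.59-fold lower, 2.35 to 2.86). In WT cells Mt1 was at 16.0 CPM on day 42, against 50.3 CPM on day 36. The other 4 members of the list, which transport zinc, had log2 differences between -0.43 and 0.32.

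Other single genes were among the lowest on day 42. Kcnab1, a subunit of voltage-gated potassium channels, was at 1.72 CPM on day 42, against 9.36 CPM on day 36 (5.43-fold lower, interval 4.14 to 7.22). Adm, the vasodilator peptide adrenomedullin, was at 7.58 CPM on day 42, against 26.1 CPM on day 36 (3.45-fold lower, 3.01 to 3.96). Asb5, an ankyrin repeat protein of a ubiquitin ligase family, was at 3.67 CPM on day 42, against 14.4 CPM on day 36, and the KO library of day 33 held only 1.11 CPM. Rn18s-rs5, a ribosomal RNA related locus in a poly(A)-selected library, was at 65.9 CPM on day 42, against 305 CPM on day 36, and at 94.6 against 372 CPM in WT cells on the same days.

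The aggrecanases Adamts1 and Adamts5, which cut matrix proteoglycans and lie next to each other on chromosome 16, were called lower in KO cells and stood higher in WT cells. Adamts1 (16, 85793827 to 85803113) was at 81.1 CPM on day 42, against 236 CPM on day 36 in KO cells (2.91-fold lower, interval 2.79 to 3.04). In WT cells it was at 703 CPM on day 42 and 421 CPM on day 36. Adamts5 (16, 85856173 to 85901828) was at 87.5 CPM on day 42, against 181 CPM on day 36 in KO cells (2.07-fold lower, 1.98 to 2.17), and at 332 CPM on day 42 and 184 CPM on day 36 in WT cells. The difference between the genotypes was not tested.

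Among the genes called higher, the long non-coding RNA Neat1 had the highest CPM on day 42. Neat1, the scaffold of nuclear paraspeckles, was at 274 CPM on day 42 (10822 counts), against 104 CPM on day 36 (2784 counts), 2.64-fold higher with an interval of 2.53 to 2.75. In WT cells it was at 311 CPM on day 42, against 63.5 CPM on day 36. Dnm3os, a host transcript of microRNAs that lies antisense to Dnm3, was at 148 CPM on day 42, against 51.7 CPM on day 36 (2.87-fold higher, 2.70 to 3.04). Whether the counting used strand is not given, so reads of Dnm3 and Dnm3os may have been mixed. All 7 nuclear-retained long RNAs of the list lay above 0, with a median of 0.48. Of these 7, 1 was called higher, Neat1, beside 0.414% of all genes. Malat1, a nuclear speckle RNA, was at 539 CPM on day 42 and 386 CPM on day 36, and Meg3, from the imprinted cluster that also holds Dlk1, at 395 CPM on day 42 and 245 CPM on day 36. Counts on transcripts annotated with a retained intron made up 4.21% of the KO library on day 42 and 3.99% on day 36, and 3.73% and 3.65% in WT cells on the same days. The part of this share in the values of the long RNAs was not tested.

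**Figure D3:**
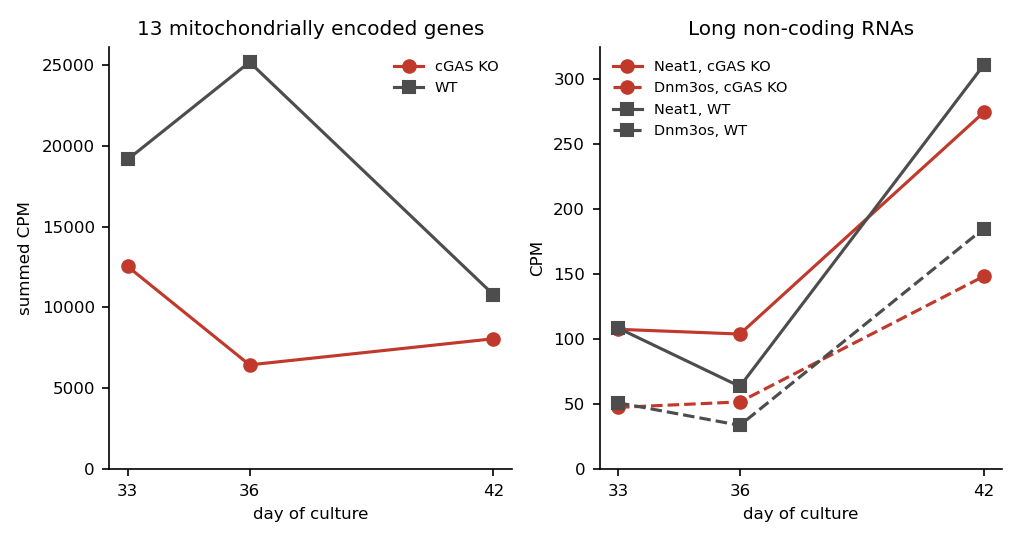
Summed CPM of the 13 mitochondrially encoded genes (left) and CPM of Neat1 and Dnm3os (right) on days 33, 36 and 42 in cGAS KO and WT cells, 1 library per point. The mitochondrial sum was 8063 CPM on day 42 and 6446 CPM on day 36 in KO cells, and Neat1 was highest on day 42 in both genotypes.

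The largest folds upward belonged to genes of low level. Lrrtm1, a synaptic adhesion protein, was at 7.50 CPM on day 42 (296 counts), against 1.57 CPM on day 36 (42 counts), 4.79-fold higher with an interval of 3.46 to 6.78. Adamts15, a matrix protease, was at 5.45 CPM on day 42, against 1.38 CPM on day 36 (3.95-fold higher, 2.77 to 5.76). Chrdl1, an extracellular antagonist of bone morphogenetic proteins, was at 6.39 CPM on day 42, against 1.83 CPM on day 36. Itga2, the collagen-binding integrin subunit, was at 6.97 CPM on day 42, against 2.05 CPM on day 36. Wnt2b, a Wnt ligand, was at 18.1 CPM on day 42, against 6.38 CPM on day 36 (2.84-fold higher, 2.40 to 3.37), and Lrrtm1 and Wnt2b stood at 0.807 and 2.15 CPM in the KO library of day 33.

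For other genes the day 36 library was the low one of the 3 KO libraries. Meox1, a homeobox factor of paraxial mesoderm, was at 12.3, 3.25 and 11.2 CPM on days 33, 36 and 42. Il1rn, the natural antagonist of the IL-1 receptor, was at 149, 23.3 and 51.9 CPM on days 33, 36 and 42, and Igfbp5, which binds insulin-like growth factors, at 28.6, 3.92 and 8.89 CPM. Wisp2, a matricellular protein downstream of Wnt, was at 149, 15.3 and 32.5 CPM on these days, and Dlk1, an imprinted inhibitor of adipocyte differentiation, at 68.9, 21.8 and 51.7 CPM. Slc7a3, a transporter of cationic amino acids, was at 7.24, 2.46 and 9.17 CPM, and Aldh1a3, which makes retinoic acid, at 8.16, 2.72 and 7.63 CPM. As a description, the 48 higher genes had median levels of 7.68, 5.09 and 11.0 CPM on days 33, 36 and 42, and the 56 lower genes 33.5, 25.5 and 8.26 CPM. The comparison of day 36 with day 33 shares the KO library of day 36, whose level the choice of genes used.

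In CPM the largest differences were mostly in matrix and cytoskeletal genes, and all of those named by this measure were under 2-fold. Col3a1, a chain of fibrillar collagen, was at 1812 CPM on day 42 and 1044 CPM on day 36, a log2 difference of 0.80. Sparc, which binds collagen, was at 3720 CPM on day 42 and 3093 CPM on day 36, and Igfbp2 at 3607 CPM on day 42 and 2996 CPM on day 36. In the other direction Fbln2, a fibulin of elastic fibres, was at 3358 CPM on day 42 and 5689 CPM on day 36, a log2 difference of -0.76. Thbs1, a matricellular glycoprotein, was at 11977 CPM on day 42 and 13924 CPM on day 36. Of 57 collagens and matrix proteins, 1 was called higher, beside 0.414% of all genes, and the median of the list was 0.07. The called gene, Col8a2, was at 18.0 CPM on day 42 and 7.31 CPM on day 36.

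Contractile genes stood slightly lower together. Of 23 members 22 lay below 0 and 0 were called, with a median of -0.30 in KO cells and -0.44 in WT cells. Acta2, smooth muscle actin, was at 2068 CPM on day 42 and 2937 CPM on day 36 (log2 difference -0.51), and Actg2, another smooth muscle actin, at 137 CPM on day 42 and 220 CPM on day 36. Genes responsive to YAP and SRF, several of which are on the contractile list too, had a median of -0.32 over 23 members. Amotl2, a YAP target that restrains YAP, was at 294 CPM on day 42 and 517 CPM on day 36, a log2 difference of -0.81.

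Mitochondrially encoded transcripts went different ways in the genotypes. In KO cells 11 of the 13 lay above 0, with a median of 0.32, and the summed level was 8063 CPM on day 42 and 6446 CPM on day 36. mt-Co1, a core subunit of cytochrome c oxidase, was at 983 CPM on day 42 and 598 CPM on day 36 (log2 difference 0.72). In WT cells all 13 lay below 0, with a median of -1.36, and the sum was 10791 CPM on day 42 and 25175 CPM on day 36. The KO library of day 33 stood at 12534 CPM. Nuclear genes of the respiratory chain had medians of -0.12 in KO cells and -0.13 in WT cells, with 0 of 44 called in either direction.

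For genes of growth arrest, inflammation and DNA sensing the counts of calls are to be read beside the 0.896% of all genes called either way, at which lists of this size would hold a call or none. None of the 43 DNA replication genes and none of the 48 mitosis genes was called, with medians of -0.01 and 0.00 and ranges from -0.29 to 0.45 and from -0.35 to 0.24. Of the 31 replication-dependent histones, whose synthesis is tied to DNA replication, 3 reached 5 CPM, and all 3 lay below 0 with a median of -0.50. Hist1h1c, a linker histone, was called lower at 36.9 CPM on day 42, against 85.4 CPM on day 36 (2.32-fold lower, interval 2.17 to 2.48), and was at 114 CPM on day 42 and 122 CPM on day 36 in WT cells. Below the limit, the linker histones Hist1h1d and Hist1h1b were at 1.32 and 0.380 CPM on day 42, against 4.85 and 1.45 CPM on day 36. The histone median depends on the setting, and was -0.86 with a limit of 20 CPM, which leaves Hist1h1c and Hist1h2bc. These are poly(A)-selected libraries, and the part of that selection in the histone values was not tested. The proliferation marker Mki67 was at 289 CPM on day 42 and 264 CPM on day 36. Cdkn2a, which encodes the inhibitors p16Ink4a and p19Arf, was at 37.6 CPM on day 42 and 44.2 CPM on day 36, and Cdkn2b, the neighbouring inhibitor, at 12.7 CPM on day 42 and 13.2 CPM on day 36. Cdkn1a, the p53 target p21, was at 269 CPM on day 42 and 328 CPM on day 36. Lmnb1, a lamin that senescent cells lose, was at 92.5 CPM on day 42 and 76.8 CPM on day 36.

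Of 32 secreted factors of senescence 2 were called higher, Il1rn and Igfbp5, beside 0.414% of all genes, and 0 lower, with a median of -0.09. The chemokine Ccl2 was at 16.3 CPM on day 42 and 19.7 CPM on day 36. None of 27 interferon-stimulated genes was called (median -0.11), and 21 of them lay below 0. In WT cells the median of the same genes was 0.52, with 8 called higher, beside 3.18% of the 11601 genes in WT cells. Among 17 genes of the cGAS and STING pathway 0 were called and the median was 0.09. Tmem173, which encodes STING, was at 30.6 CPM on day 42 and 42.4 CPM on day 36. Of 38 p53 targets 0 were called, with a median of -0.13, and 10 lay above 0.

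**Figure D4:**
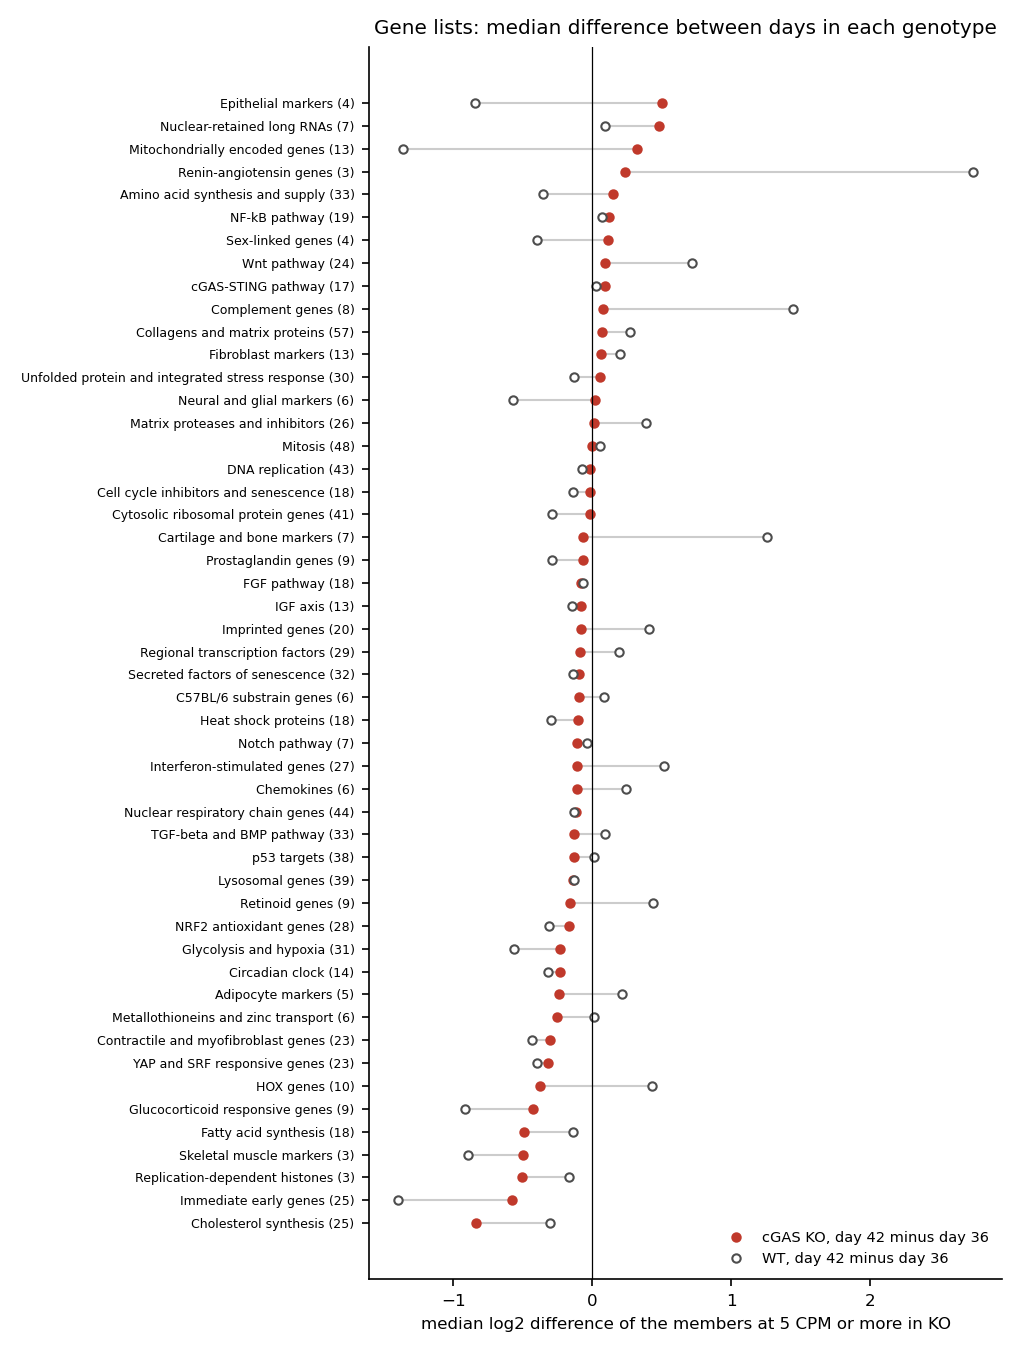
Median log2 difference of day 42 minus day 36 for each gene list (members at 5 CPM or more in KO in brackets), filled circles for cGAS KO and open circles for WT, 1 library per genotype and day. Cholesterol synthesis (-0.84) and immediate early genes (-0.58) are lowest in KO at the 5 CPM limit, followed by the replication-dependent histones (-0.50, 3 members), and the median over all genes is -0.01.

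Of the 50 gene lists with a member at 5 CPM or more, 24 held a called gene and 26 did not, and 20 medians lay within 0.1 of 0. Amino acid synthesis and supply genes had a median of 0.15, with 29 of 33 above 0. Of the 33, 1 was called higher, Slc7a3, beside 0.414% of all genes. In WT cells the median of this list was -0.36. Slc7a11, the cystine importer, was at 20.2 CPM on day 42 and 11.2 CPM on day 36, a log2 difference of 0.86. Of 19 NF-kB pathway genes 1 was called in each direction, beside 0.414% of all genes higher and 0.483% lower. Nfkbie, an inhibitor of NF-kB, was called higher at 10.9 CPM on day 42 and 5.11 CPM on day 36. Nfkbiz, an atypical member of the same inhibitor family, was called lower at 20.2 CPM on day 42 and 45.8 CPM on day 36. Nr1d1, a repressor of the circadian clock, was called lower at 24.5 CPM on day 42 and 52.96 CPM on day 36. Rps19, called higher at 7.86 CPM on day 42 and 3.66 CPM on day 36, has near-identical copies in the genome and is uncertain.

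Most genes called in KO also lay on the same side in WT cells, whose libraries are not shared with the KO comparison. Of the 48 higher genes 42 lay above 0 in WT and 30 were at least 2-fold higher there, which is 62.5% of the KO list and 8.13% of the 369 genes called higher in WT. Of the 56 lower genes 48 lay below 0 in WT and 32 were at least 2-fold lower, which is 57.1% of the KO list and 13.01% of the 246 called lower in WT. Over all 11601 genes, 47.3% lay above 0 in WT and 52.7% below. The medians in WT were 1.21 for the higher genes and -1.26 for the lower ones. Pearson's r between the KO and the WT difference was 0.45 across the 11601 genes, which are not independent replicates. A single called gene went 2-fold the other way, the predicted pseudogene RP24-138J15.1, at 13.1 CPM on day 42 and 6.15 CPM on day 36 in KO cells and at 21.2 CPM on day 42 and 46.9 CPM on day 36 in WT cells. Time in culture, passage and conditions on the day of harvest cannot be told apart in either genotype.

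**Figure D5:**
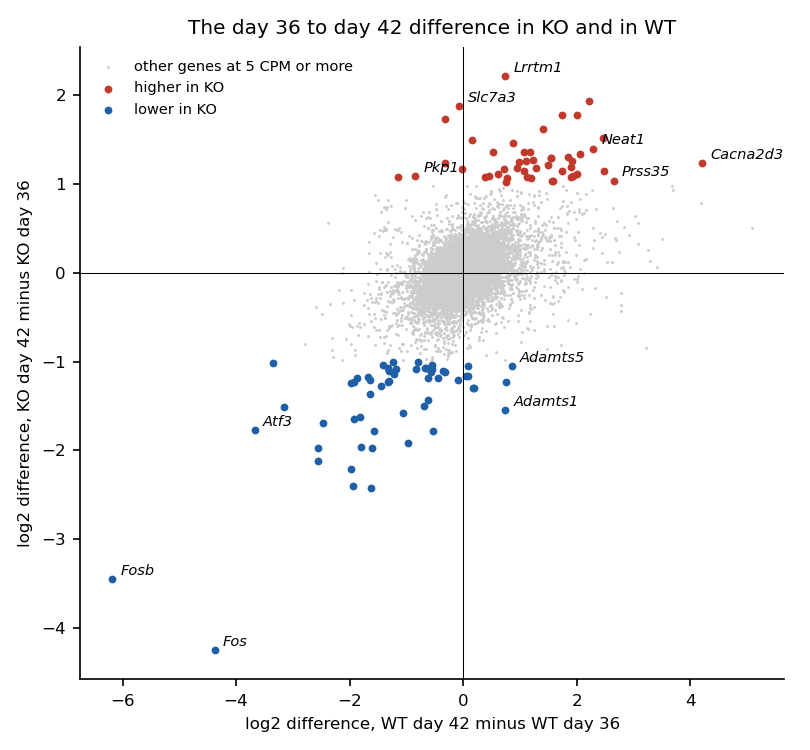
Log2 difference of day 42 minus day 36 in KO cells (vertical axis) against the same difference in WT cells (horizontal axis) for 11601 genes, 1 library per genotype and day. Of the genes called in KO, 42 of 48 higher (red) and 48 of 56 lower (blue) lie on the same side of 0 in WT, and Adamts1 and Adamts5 lie on the other side.

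The only fit with a spread between libraries compared day 42 with day 36 over both genotypes, and so describes their average and not the KO step. With genotype and day as factors over 6 libraries and 2 residual degrees of freedom, edgeR's quasi-likelihood test called 0 of 17233 genes at an adjusted p below 0.05. The smallest adjusted p was 0.347, and 2212 genes had an unadjusted p below 0.05. limma-voom also called 0, with 2268 genes under the unadjusted limit, while DESeq2 called 95 higher and 139 lower.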

How the data were processed

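Estimated counts per gene, fractional and not normalized, were deposited by the authors for 24 columns, 4 per genotype and day, per the file headers, with RPKM values beside them. The deposited RPKM served only as an alternative. Another 24 columns of RPKM in the transcript table were not used, while the authors' estimated counts there gave the retained-intron shares. Bowtie2 2.2.1, limma 3.18.13 and the build mm10 appear in the submitters' processing notes with no role stated. Which program counted the reads, and whether by strand, is not given in the sources used here. Per the labels' protocols, column-extracted RNA went into stranded, poly(A)-selected libraries.

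After a chi-square check of genes with at least 80 counts, the 4 columns of a group were summed, rounded and counted as 1 library (25651250 to 48717439 counts). Nothing in the labels says that days are separate cultures, so the p-values of the fit over both genotypes reflect variation among these libraries alone, possibly technical. Scaling used TMM factors of edgeR 4.0.16 in R 4.3.3 (0.927 to 1.08), and log2 CPM a prior count of 2. Calls needed 5 CPM in either library and a 2-fold difference. Intervals are exact (Clopper-Pearson on the conditional binomial). Alternatives used limma 3.58.1, DESeq2 1.42.0, other scalings, filters, prior counts and columns left out. The fits were tested on simulated data.

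Coordinates and biotypes are of GENCODE M21 (GRCm38), in which 45143 gene IDs were found. Promoter windows and motifs came from RefSeq (GRCm38.p6). Named genes follow a rule: the 12 largest log2 and 6 largest CPM differences each way, up to 4 members per list past 2-fold or the member with the largest difference, and a set of senescence and interferon genes. Other genes, such as Junb, Klf2, Klf4, Hsd17b7, Idi1, Socs3, Cish, F3 and further list members, were named after their values were seen. Results for some genes that the rule names are not reported here. The members and lists were chosen with earlier results of these data known.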

Additional observations from a re-analysis of the deposited data

Results flagged for a closer look

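The lists below were picked out because their medians lay at least 0.3 from 0 on the log2 scale, on opposite sides in KO and WT cells. None of these differences between the genotypes was tested, since each rests on 1 library per genotype and day. Mitochondrially encoded genes had a median log2 difference of day 42 minus day 36 of 0.32 in KO cells and -1.36 in WT cells.

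HOX genes, which record position along the body axis, had a median of -0.38 in KO cells and 0.43 in WT cells. All 10 measured members lay below 0 in KO. Hoxc8 was at 4.87 CPM on day 42 and 8.84 CPM on day 36 in KO cells, and at 47.6 CPM on day 42 and 17.0 CPM on day 36 in WT cells. Hoxa7 was at 22.9 CPM on day 42 and 31.1 CPM on day 36 in KO cells, and at 22.7 CPM on day 42 and 10.2 CPM on day 36 in WT cells. The KO library of day 33 held 5.05 CPM of Hoxa7, so that the KO level was highest on day 36.

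Epithelial markers had a median of 0.50 in KO cells and -0.84 in WT cells, over 4 members at 5 CPM or more. Pkp1, a desmosomal plaque protein, was called higher in KO cells, at 62.7 CPM on day 42 and 29.4 CPM on day 36 (interval of the fold 1.96 to 2.31), and was at 2.78 CPM on day 42 and 5.04 CPM on day 36 in WT cells. Lad1, an anchoring filament protein, was at 12.4 CPM on day 42 and 7.46 CPM on day 36 in KO cells and at most 0.344 CPM in WT cells. The epithelial keratin genes Krt8 and Krt18 were at 0 and 0.431 CPM on day 42 and 0.037 and 0.075 CPM on day 36 in KO cells, and the adhesion gene Epcam at 0.177 CPM on day 42 and 0.075 CPM on day 36. With no limit on level, over all 13 listed markers, the KO median was 0.077.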

How the results depend on the processing

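The counts of called genes moved with the level limit: 163 higher and 118 lower at 1 CPM, 15 and 32 at 20 CPM, and 833 and 616 with no limit, where many genes rest on a few counts. Under the other scalings, prior counts and the deposited RPKM there were 41 to 58 higher and 44 to 56 lower, and leaving out a numbered column gave 53 to 58 and 50 to 56. Fitting the 8 columns with the column number as a replicate block gave 49 higher and 54 lower, as without the block. The numbers do not pair cultures, because the 4 columns agree within sampling noise. The 51 named genes past 2-fold include Mb21d1, Il6, Mmp3 and Mmp13, which lay below the main level limit and were not called. Of the 51, 26 were called in the main setting and under every other setting tried. The 20 CPM limit alone removed 19 called genes. Because the 51 hold these uncalled genes, 26 of 51 is not the share of called genes that stayed called. No named gene changed direction.

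Of 50 list medians, 14 moved by more than a limit set by counting error. For each list the limit was the median distance from the centre to the end of its members' 95% counting intervals. Main medians not given above were -0.11 for chemokines, -0.25 for metallothioneins and zinc transport, -0.16 for retinoid genes and 0.23 for renin-angiotensin genes. They were -0.13 for the TGF-beta and BMP pathway, -0.43 for glucocorticoid responsive genes and -0.50 for skeletal muscle markers. The first 3 of these lists changed sign with no limit, and renin-angiotensin genes did at 20 CPM. With library totals alone the medians were -0.81 for replication-dependent histones, 0.13 for collagens, -0.27 for YAP and SRF genes, 0.37 for mitochondrially encoded genes, 0.53 for nuclear-retained RNAs and 0.11 for fibroblast markers. TMM factors of the KO libraries of days 36 and 42 alone gave -0.84 for the histones. With the deposited RPKM they were 0.12 for collagens, -0.27 for YAP and SRF genes, 0.37 for mitochondrially encoded genes, 0.53 for nuclear-retained RNAs and 0.11 for fibroblast markers. At 1 CPM they were -0.79 for the histones, -0.078 for metallothioneins and zinc transport and 0.077 for epithelial markers. At 20 CPM they were -0.86 for the histones, -0.037 for the TGF-beta and BMP pathway, -0.078 for metallothioneins and zinc transport, -0.044 for renin-angiotensin genes and 0.27 for epithelial markers. With no limit they were 0.20 for chemokines, 0.0083 for metallothioneins and zinc transport, 0.016 for retinoid genes, -0.31 for glucocorticoid responsive genes, 0.077 for epithelial markers and -0.25 for skeletal muscle markers. Leaving out a numbered column gave 0.094 to 0.13 for collagens, -0.31 to -0.26 for YAP and SRF genes, -0.098 to -0.048 for the TGF-beta and BMP pathway and 0.35 to 0.36 for mitochondrially encoded genes. Another limit changes which members are counted, and another scaling can do so for members near the limit. The runs without a numbered column took their TMM factors over all genes. The main factors were taken over genes that passed an expression filter. The part of each of these in the moves was not tested.

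In the fit over both genotypes DESeq2 called 95 higher and 139 lower. Leaving out 1 library gave 0 higher and 0 to 1 lower by edgeR, with the single call made without KO day 33 and without WT day 33. The 4 libraries of days 36 and 42 gave 1 lower. Depth limits genes near 5 CPM, where the level rests on about 198 counts in the KO library of day 42 and 134 in that of day 36.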

Other observations

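Pim1 and Cebpd, known as targets of STAT transcription factors, were picked from the lower genes after their values were seen, and no list of such targets was examined. Pim1, a survival kinase, was at 5.32 CPM on day 42 and 11.3 CPM on day 36 in KO cells, and Cebpd, a factor of the acute phase response, at 4.94 CPM on day 42 and 13.4 CPM on day 36. In WT cells Pim1 was at 5.24 CPM on day 42 and 12.0 CPM on day 36, and Cebpd at 5.38 CPM on day 42 and 8.30 CPM on day 36. Both also lay below their day 36 level in WT cells, and the difference of Cebpd was less than 2-fold there.

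The very large interferon-inducible GTPase Gvin1 and its neighbours Gm4070, Gm8979 and Gm8989 on chromosome 7 were all called lower in KO cells. Gvin1 (7, 106156556 to 106215326) was at 7.30, 20.2 and 8.21 CPM on days 33, 36 and 42 in KO cells, and at 4.16, 4.19 and 4.81 CPM in WT cells on the same days. Gm4070 was at 7.09, 19.6 and 7.93 CPM in KO cells on days 33, 36 and 42. These genes are near-identical copies, so their values are uncertain and the 4 calls are not counted as separate.

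By class, 8 of 112 long non-coding genes at 5 CPM or more were called higher and 2 lower, beside 0.414% and 0.483% of all genes. Their median was 0.10 in KO cells and 0.02 in WT cells. The 38 protein-coding genes called higher and 47 called lower were among 10158, with a median of 0.00 in both genotypes. Genes named Zfp, mostly zinc finger factors and a class chosen after its values were seen, lay above 0 for 192 of 238 members, with medians of 0.23 in KO cells and 0.28 in WT cells. In 4 equal groups by deposited gene length, from the shortest genes to the longest, the KO medians were -0.06, -0.02, 0.01 and 0.05, and the WT medians were -0.15, -0.03, 0.02 and 0.05. In 4 equal groups by GC content of the longest transcript, from low to high, the KO medians were 0.03, 0.01, -0.01 and -0.08. The WT medians of these GC groups did not follow the same order, at -0.08, -0.02, 0.01 and -0.03.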
